A study of Mus musculus with 8 samples.

Results

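Fatty acid oxidation and ketogenesis were examined as a set of 39 genes in the livers of 4 male C57BL/6J mice, M24, M48, M50 and M60. An AAV vector, made from adeno-associated virus, was injected when the animals were 2 to 3 months old, and they were kept on a normal diet and necropsied 18 months later. From each liver a piece called hepatocellular carcinoma and a piece of adjacent normal tissue were taken, which gave 4 tumor and 4 adjacent samples, each hybridised to 1 Affymetrix mouse gene array. All 8 samples therefore come from vector-injected animals, 1 tumor stands for each mouse, and the gene carried by the vector is not given in the sources used here. A gene was measured where an array probe carried its symbol and no other, and of several such probes the brightest by its mean over the 8 arrays was used. This gave 37 of the 39 members among 19938 genes, with no value for the acyl-CoA synthetases Acsl1 and Acsl3. Of the 37, Acot3 was among the dimmest 40% of genes, which did not enter the test, so 36 members were tested among 11963 genes.

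Fatty acids are activated to acyl-CoA esters, carried into mitochondria by the carnitine shuttle and shortened there by repeated rounds of beta-oxidation, each made of a dehydrogenase, a hydratase, a second dehydrogenase and a thiolase step. Peroxisomes hold a parallel set of enzymes for very long and branched chains and for bile acid side chains. In the liver much of the acetyl-CoA leaves as ketone bodies, and the nuclear receptor PPAR-alpha is the best known inducer of these genes. The members were sorted by their known place in the cell into 18 mitochondrial and 13 peroxisomal genes, with 6 measured genes that act elsewhere or in several places.

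Most members that changed were lower in the tumors, while a small group was higher. Of the 36 tested members 20 fell and 5 rose at an adjusted p under 0.05 in limma. Among all tested genes 15.7% fell and 16.3% rose, 31.9% in all. The median difference over the tested members was -0.41 log2 units, against 0.0008 over all tested genes. The 4 tumor values lay below all 4 adjacent values in 13 members and above them in 3, where 15.6% and 14.9% of all tested genes showed such a separation. All levels and differences are on the log2 scale, differences are tumor minus adjacent (n = 4 pairs, with SE for the fit's standard error), and a probe's level is not comparable with that of another gene's probe. The tissue was measured in bulk, so fewer cells of a type and less RNA per cell cannot be told apart.

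**Figure D1:**
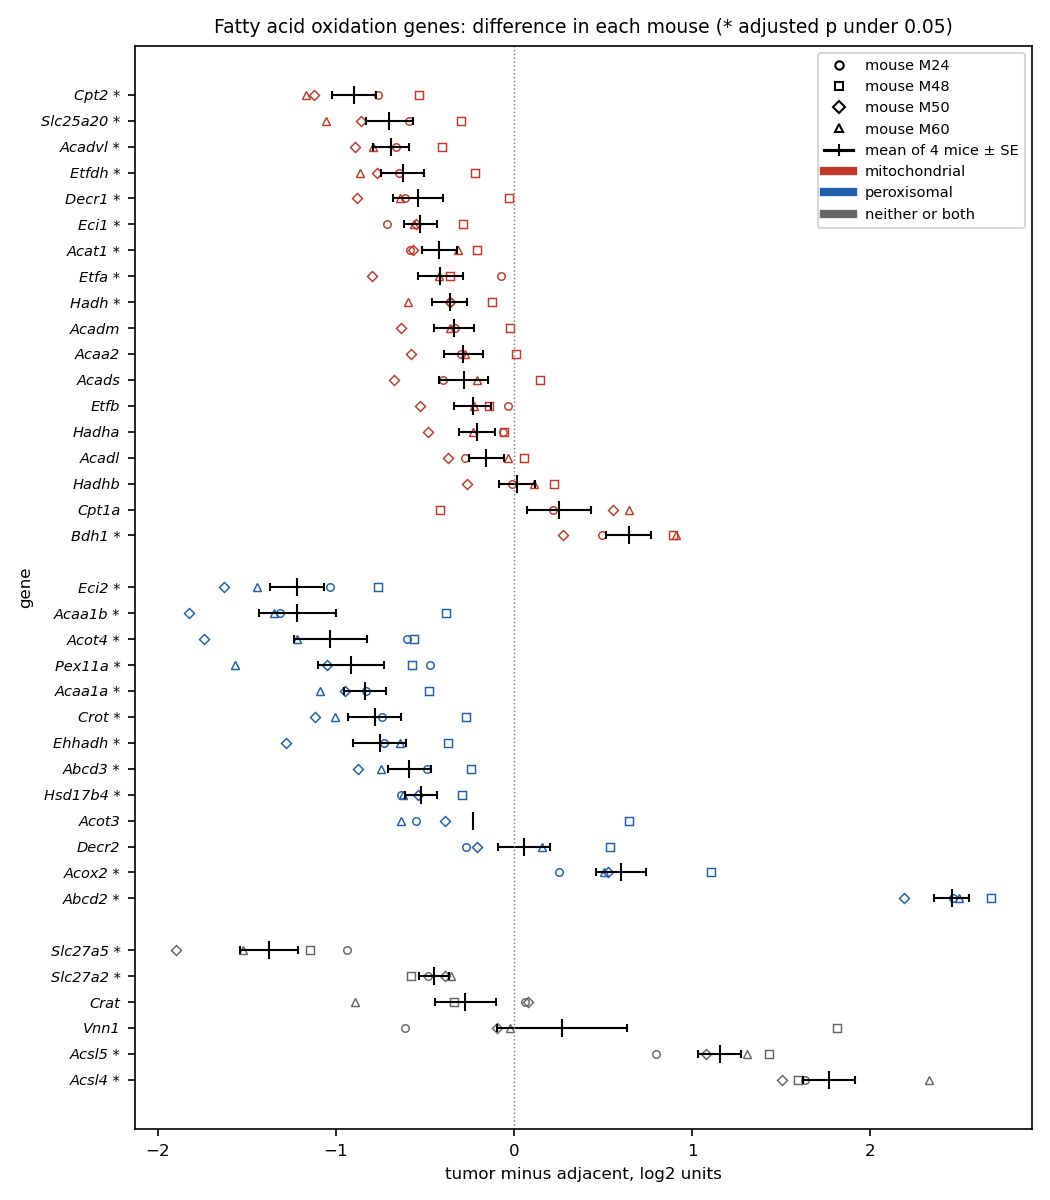
The plot gives the tumor minus adjacent difference (x axis, log2 units) of the 37 measured members (y axis), with 1 open symbol per mouse and the mean of the 4 mice ± SE as a black bar; Acot3 was not tested and has no SE. Red, blue and grey mark mitochondrial, peroxisomal and other members. Most symbols lie left of 0, with Abcd2 at 2.46, Acsl4 at 1.77 and Acsl5 at 1.16 on the far right.

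The carnitine shuttle was lower at its inner membrane steps. Cpt2, the carnitine palmitoyltransferase of the inner membrane, stood at 9.06, 8.73, 9.54 and 9.66 in the adjacent samples of M24, M48, M50 and M60, and at 8.30, 8.20, 8.41 and 8.50 in their tumors. The tissues did not overlap, and every tumor was lower than its own adjacent piece. Cpt2 fell by 0.90 (SE 0.125, adjusted p = 0.00314), to 0.537 of the adjacent level (95% confidence interval 0.436 to 0.661). The carnitine-acylcarnitine carrier Slc25a20 fell by 0.70 (SE 0.132, adjusted p = 0.00888), again without overlap between the tissues. Cpt1a, the outer membrane enzyme that controls entry and is a classical PPAR-alpha target, was at 10.49 to 10.64 in the 4 adjacent samples and at 10.71, 10.23, 11.17 and 11.28 in the tumors of M24, M48, M50 and M60. Its adjacent values were tightly grouped (SD 0.0694), whereas its tumor values were spread (SD 0.480). It did not pass, at 0.25 (SE 0.178, adjusted p = 0.324). In M48 the difference was -0.41, against 0.22 to 0.65 in the other mice, and without M48 Cpt1a passed at 0.48 (adjusted p = 0.0297).

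Among the acyl-CoA dehydrogenases, which start each round of mitochondrial oxidation on chains of a given length, the enzyme of the longest chains fell. Acadvl, the very long chain enzyme, was at 10.54, 10.41, 10.86 and 10.85 in the adjacent samples of M24, M48, M50 and M60 and at 9.87, 10.00, 9.97 and 10.05 in the tumors. The tumor values spanned a narrow range below every adjacent value, and Acadvl fell by 0.69 (SE 0.101, adjusted p = 0.00373). The differences of the other dehydrogenases were smaller and did not pass: -0.34 for medium chain Acadm (adjusted p = 0.0637), -0.28 for short chain Acads (adjusted p = 0.164) and -0.15 for long chain Acadl (adjusted p = 0.281). Acadm did not overlap between the tissues, and its difference in M48 was -0.02. Without M48, Acadm (-0.44, adjusted p = 0.0293) and Acads (-0.43, adjusted p = 0.0411) passed, and Acadm also passed with each array centred on its median (adjusted p = 0.0405) and with array weights (adjusted p = 0.0411). Whether the chain length classes differ from each other was not tested.

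Neither subunit gene of the mitochondrial trifunctional protein, which carries out the remaining steps for long chains, passed. Hadha, its alpha subunit, was lower in 4 of 4 mice, with a difference of -0.21 (SE 0.0992, 95% confidence interval -0.44 to 0.03, adjusted p = 0.161). Hadhb, its beta subunit with the thiolase, stood at 0.02 (SE 0.101, 95% confidence interval -0.23 to 0.26, adjusted p = 0.918), a sign that turned to -0.02 with each array centred on its median. A further probe of Hadhb gave 0.03. These subunit genes lie head to head, with 272 bases between their start sites, so that 228 of the 250 bases upstream of Hadhb are also upstream of Hadha on the other strand. That shared stretch is shown because the 2 genes have a common upstream region, and capitals mark the bases that both upstream windows hold (RefSeq, build GRCm38.p6, chr5:30155003-30155252, plus strand).
Hadhb: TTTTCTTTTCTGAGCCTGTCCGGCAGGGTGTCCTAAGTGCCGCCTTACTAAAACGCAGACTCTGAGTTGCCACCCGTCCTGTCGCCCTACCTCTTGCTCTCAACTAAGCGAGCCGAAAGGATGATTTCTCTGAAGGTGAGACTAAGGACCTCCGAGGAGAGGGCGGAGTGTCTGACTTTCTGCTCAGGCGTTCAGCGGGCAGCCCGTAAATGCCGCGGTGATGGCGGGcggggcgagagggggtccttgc
Of the enzymes for shorter chains and for double bonds, Hadh, the dehydrogenase of medium and short chains, fell by 0.36 (SE 0.0983, adjusted p = 0.0326), a call lost without M24 (adjusted p = 0.101), M50 (0.0854) or M60 (0.151). The thiolase Acaa2 did not pass at -0.28 (adjusted p = 0.0989), and did so without M48 at -0.38 (adjusted p = 0.0496). Eci1, an enoyl-CoA isomerase for unsaturated chains, fell by 0.53 (SE 0.0932, adjusted p = 0.00715, and 0.0573 with no replicate block). Decr1, the dienoyl-CoA reductase of the same branch, fell by 0.54 (SE 0.141, adjusted p = 0.0284), with a call lost with no replicate block (adjusted p = 0.0603) and without M24 (0.1), M50 (0.0988) or M60 (0.103). In all, 4 of these 10 mitochondrial enzymes fell, and the difference of every called enzyme was negative in all 4 mice.

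The electron transfer flavoprotein takes electrons from the acyl-CoA dehydrogenases and hands them to the respiratory chain through its own dehydrogenase. That dehydrogenase, Etfdh, was at 11.21, 10.74, 11.41 and 11.21 in the adjacent samples of M24, M48, M50 and M60 and at 10.56, 10.53, 10.64 and 10.35 in the tumors. It fell by 0.62 (SE 0.120, adjusted p = 0.0097) with no overlap. The subunit Etfa fell by 0.41 (SE 0.124, adjusted p = 0.0449), while the subunit Etfb did not pass at -0.23 (SE 0.103, adjusted p = 0.136). The Etfa call was close to the threshold and was lost without M48 (adjusted p = 0.0848), M50 (0.116) or M60 (0.134), with no filter (0.0589), with quantile normalization (0.063) and without the trend (0.0503).

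The ketone body members moved in opposite directions. Bdh1, which converts acetoacetate and beta-hydroxybutyrate into each other, was at 10.15, 9.52, 10.48 and 10.25 in the adjacent samples of M24, M48, M50 and M60 and at 10.64, 10.41, 10.76 and 11.16 in the tumors. The tissues overlapped between mice, since the M48 tumor lay below the M50 adjacent sample, but each tumor was above its own adjacent piece. Bdh1 rose by 0.64 (SE 0.128, adjusted p = 0.0107, and 0.0561 with no replicate block), to 1.56 times the adjacent level (95% confidence interval 1.26 to 1.93). Acat1, the thiolase that joins acetyl-CoA units at the start of ketogenesis, fell by 0.42 (SE 0.0958, adjusted p = 0.0178), and its call was lost with no replicate block (adjusted p = 0.119) and without M24 (0.0757), M50 (0.0632) or M60 (0.0548).

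In peroxisomal beta-oxidation 5 of 7 genes fell and 1 rose. Eci2, an enoyl-CoA isomerase found mainly in peroxisomes, was at 9.83, 9.81, 10.60 and 10.34 in the adjacent samples of M24, M48, M50 and M60 and at 8.80, 9.04, 8.97 and 8.90 in the tumors. The tumors were alike (SD 0.104) and all lay below the adjacent samples. Eci2 fell by 1.22 (adjusted p = 0.00209), to 0.43 of the adjacent level (95% confidence interval 0.336 to 0.552).

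The peroxisomal thiolases Acaa1a and Acaa1b, which cleave the shortened chain in the last step, are close copies of each other, so their probes can share signal. Acaa1b was at 10.38, 9.50, 10.67 and 10.44 in the adjacent samples of M24, M48, M50 and M60 and at 9.06, 9.12, 8.85 and 9.10 in the tumors. The adjacent sample of M48 was the low value of its tissue, the tumors had an SD of 0.122, and no values overlapped. Acaa1b fell by 1.22 (SE 0.215, adjusted p = 0.0071), with differences from -0.38 in M48 to -1.82 in M50. Acaa1a fell by 0.84 (SE 0.116, adjusted p = 0.00307), also without overlap. Their upstream sequences have 54.8% identity over 250 bases, and the 150 bases before each start are shown to let the pair be compared. Capitals mark the CCAAT box (letters CCAAT, either strand; ATTGG on the strand shown), which was searched in windows from 250 bases before to 50 after the start and occurs in 37.4% of all 32851 windows and in 17 of 36 windows of the members. The stretches are from RefSeq, build GRCm38.p6, at chr9:119341144-119341293 on the plus strand for Acaa1a and chr9:119157094-119157243 on the minus strand for Acaa1b.
Acaa1a: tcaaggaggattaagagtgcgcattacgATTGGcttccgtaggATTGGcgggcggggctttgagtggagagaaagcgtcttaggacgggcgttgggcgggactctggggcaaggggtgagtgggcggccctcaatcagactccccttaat
Acaa1b: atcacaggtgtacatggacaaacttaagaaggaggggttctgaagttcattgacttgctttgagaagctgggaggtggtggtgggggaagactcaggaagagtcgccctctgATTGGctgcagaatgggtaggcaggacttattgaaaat
A match is a description of letters and not of a bound site.

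Of the bifunctional enzymes of the hydratase and dehydrogenase steps, Ehhadh, a strong PPAR-alpha target, was at 10.43, 10.33, 10.93 and 10.62 in the adjacent samples of M24, M48, M50 and M60 and at 9.70, 9.97, 9.65 and 9.98 in the tumors. It fell by 0.75 (SE 0.148, adjusted p = 0.0103) with no overlap. Hsd17b4, which serves branched chains and bile acid intermediates, fell by 0.52 (SE 0.0909, adjusted p = 0.00675, and 0.0571 with no replicate block). Acox2, the oxidase of branched chains and bile acid precursors, went the other way. It was at 9.95, 9.52, 10.26 and 10.20 in the adjacent samples and at 10.20, 10.63, 10.79 and 10.71 in the tumors, and rose by 0.60 (SE 0.141, adjusted p = 0.0195). The largest rise, 1.11, was in M48, and the call was lost without M50 (adjusted p = 0.0578) or M60 (0.0576). Decr2, the peroxisomal dienoyl-CoA reductase, did not pass at 0.06 (95% confidence interval -0.29 to 0.40, adjusted p = 0.802), with 2 mice higher and 2 lower.

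The peroxisomal ABC transporters, which bring acyl-CoA esters into the organelle, moved apart. Abcd2, which prefers very long and polyunsaturated chains, was at 7.60, 7.40, 8.12 and 8.13 in the adjacent samples of M24, M48, M50 and M60 and at 10.07, 10.08, 10.31 and 10.63 in the tumors. Every tumor was more than 2 units above its own adjacent piece, with differences from 2.19 to 2.68. Abcd2 rose by 2.46 (SE 0.0992, adjusted p = 6.83e-05), to 5.49 times the adjacent level (95% confidence interval 4.66 to 6.48), the largest difference among the tested members. Abcd3, the major transporter of the peroxisomal membrane in liver, fell by 0.59 (SE 0.120, adjusted p = 0.0118), a call lost without M60 (adjusted p = 0.0564) and with no replicate block (0.0984). In the adjacent samples Abcd3 was at 10.40 in M48 and at 11.26 to 11.40 in the other mice.

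Genes of export from the peroxisome and of its abundance were lower. Crot, the carnitine octanoyltransferase that prepares shortened chains for mitochondria, fell by 0.78 (SE 0.147, adjusted p = 0.00888) with no overlap between tissues. Acot4, an acyl-CoA thioesterase of peroxisomes, was at 7.75, 7.74, 7.99 and 7.89 in the adjacent samples of M24, M48, M50 and M60 and at 7.15, 7.18, 6.25 and 6.67 in the tumors. Acot4 fell by 1.03 (SE 0.204, adjusted p = 0.0107), with the larger differences in M50 (-1.74) and M60 (-1.22). Its relative Acot3 lay around the filter value of 4.597 and was not tested; its difference was 0.65 in M48 and -0.63 to -0.39 in the other mice. Pex11a, which promotes the division of peroxisomes and is induced by PPAR-alpha, fell by 0.91 (SE 0.184, adjusted p = 0.0113), from -0.47 in M24 to -1.56 in M60.

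The peroxisomal members had a lower median difference than the mitochondrial members in each mouse, while their means lay closer together. Over the 13 measured peroxisomal members the median difference was -0.60, -0.29, -0.95 and -0.74 for M24, M48, M50 and M60. Over the 18 mitochondrial members it was -0.34, -0.13, -0.57 and -0.34 in the same mice. The peroxisomal median was the lower of the pair in each of the 4 mice, with a gap of -0.30 ± 0.113 (SD, n = 4) and values from -0.41 in M60 to -0.16 in M48. The mean over the members was -0.38 for peroxisomal and -0.32 for mitochondrial genes, a gap of -0.06 ± 0.173 (SD, n = 4), with 0.18 in M48 and -0.21 to -0.06 in the other mice; the peroxisomal mean includes Abcd2, at 2.46. Of the tested members 9 of 12 peroxisomal and 9 of 18 mitochondrial genes fell, and 2 and 1 rose. Members are not replicates and were sorted by known function, so no test was made of the gap. With Abcd2, Abcd3 and Pex11a left out, the gap of the medians of the gene means was -0.42, against -0.41 with them.

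**Figure D2:**
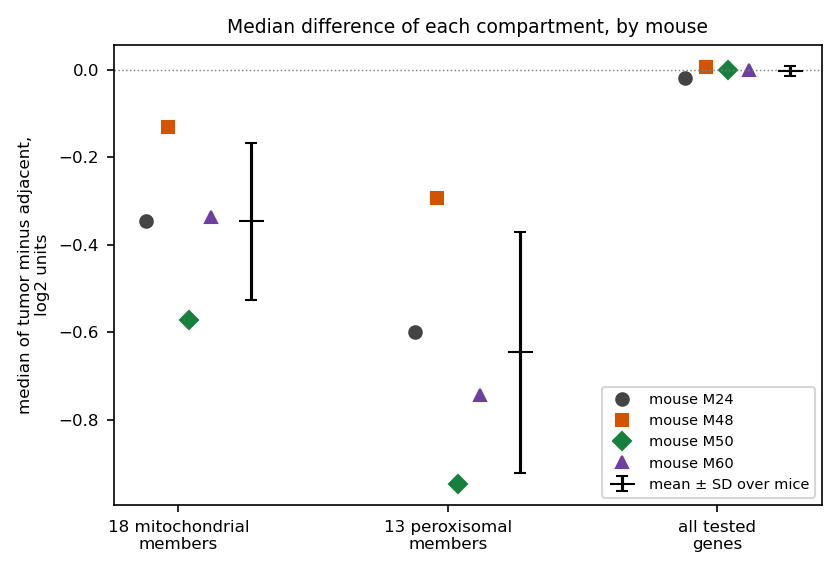
The plot gives, for each mouse (symbols), the median tumor minus adjacent difference (y axis, log2 units) over the mitochondrial members, the peroxisomal members and all tested genes, with the mean ± SD over the 4 mice as bars. The peroxisomal medians run from -0.95 to -0.29 and the mitochondrial medians from -0.57 to -0.13, while the medians of all tested genes lie near 0.

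Of the enzymes that activate fatty acids, 2 of 4 measured genes rose and 2 fell, with no overlap between tissues in any of the 4. Acsl4, an acyl-CoA synthetase with a preference for arachidonic acid, was at 8.66, 8.35, 8.40 and 8.08 in the adjacent samples of M24, M48, M50 and M60 and at 10.30, 9.94, 9.91 and 10.42 in the tumors. It rose by 1.77 (SE 0.147, adjusted p = 0.000569), to 3.41 times the adjacent level (95% confidence interval 2.67 to 4.34). Acsl5, a synthetase of the mitochondrial outer membrane and endoplasmic reticulum, was at 11.52, 10.15, 11.03 and 11.02 in the adjacent samples and at 12.32, 11.59, 12.11 and 12.33 in the tumors. The lowest value of each tissue was that of M48, and each tumor exceeded its own adjacent piece by 0.80 to 1.43. Acsl5 rose by 1.16 (SE 0.120, adjusted p = 0.00118), to 2.23 times the adjacent level (95% confidence interval 1.83 to 2.72).

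The very long chain synthetases of the Slc27 family were lower. Slc27a5, which also activates bile acids before their conjugation, was at 12.12, 12.09, 11.94 and 11.99 in the adjacent samples of M24, M48, M50 and M60 and at 11.18, 10.94, 10.04 and 10.47 in the tumors. Adjacent tissue was uniform (SD 0.0839) and the tumors were not (SD 0.506). Slc27a5 fell by 1.37 (SE 0.161, adjusted p = 0.00174), to 0.386 of the adjacent level (95% confidence interval 0.296 to 0.503). Slc27a2, an abundant liver enzyme of uptake and activation, fell by 0.45 (SE 0.0853, adjusted p = 0.00907), with close values in the mice from -0.58 to -0.35.

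**Figure D3:**
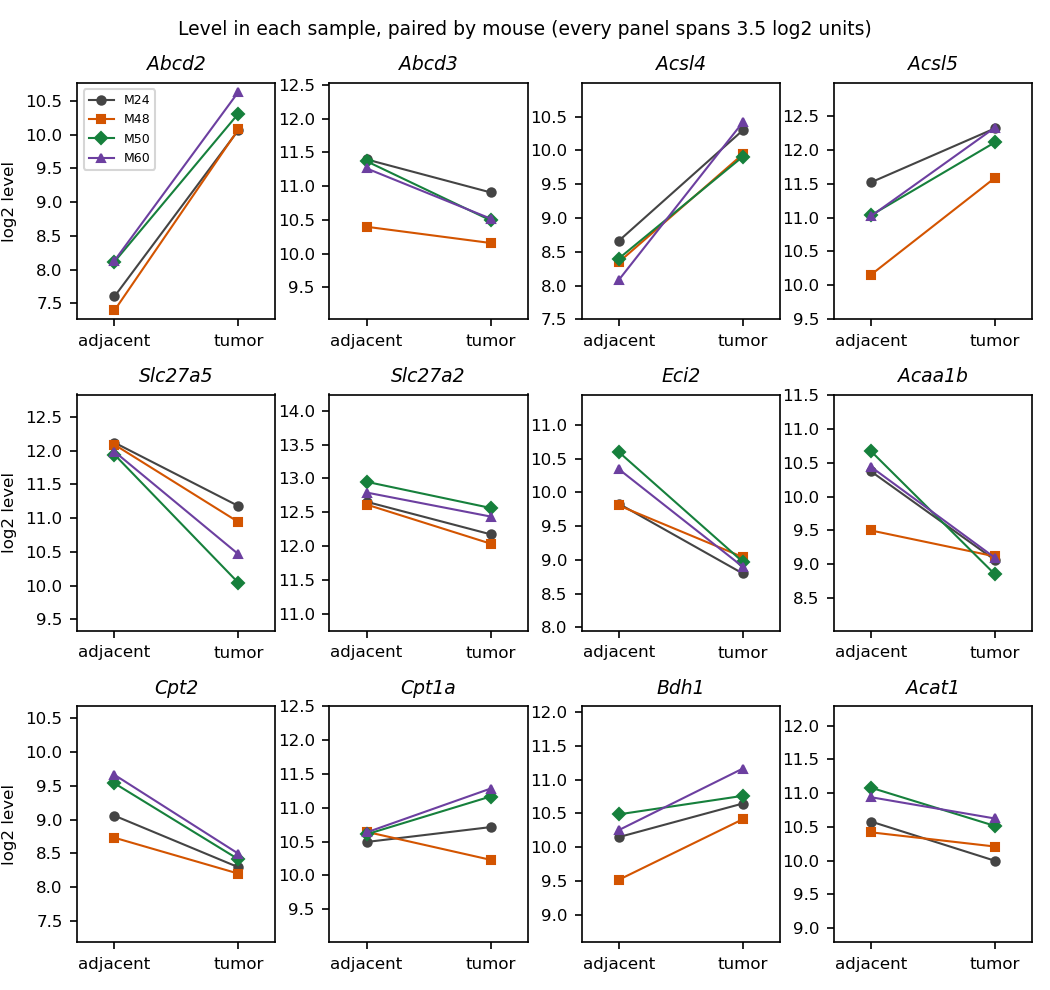
Each panel gives the log2 level (y axis) of 1 gene in the adjacent and the tumor sample of each mouse, joined by a line. The y axes span the same number of log2 units, each around its own midpoint, so heights cannot be compared between panels. Abcd2, Acsl4, Acsl5 and Bdh1 go up in all 4 mice, Abcd3, Slc27a5, Slc27a2, Eci2, Acaa1b, Cpt2 and Acat1 go down in all 4, and Cpt1a goes down only in M48.

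The remaining members did not pass. Crat, the carnitine acetyltransferase of mitochondria and peroxisomes, had a difference of -0.27 (SE 0.169, adjusted p = 0.269), with -0.89 in M60 and values from -0.34 to 0.08 in the other mice. Vnn1, a pantetheinase that is a sensitive PPAR-alpha target, was at 10.11, 8.70, 11.04 and 10.63 in the adjacent samples of M24, M48, M50 and M60 and at 9.50, 10.51, 10.95 and 10.60 in the tumors. Its difference was 1.82 in M48 and between -0.61 and -0.02 in the other mice, which gave a mean of 0.27 (SE 0.364, adjusted p = 0.613).

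The adjacent sample of M48 was low across the set. It had the lowest of the 4 adjacent values in 33 of 37 measured members (89.2%), against 34.2% of all tested genes, and in all 13 peroxisomal members. Over the members its median deviation from the mean of the other 3 adjacent samples was -0.448, and over all tested genes it was -0.01. The adjacent sample of M50 lay to the other side, with the highest adjacent value in 25 of the 37 (67.6%), against 24.8% of all tested genes. Its median deviation was 0.352 over the members and 0.0179 over all tested genes. The tumor of M48 had the lowest tumor value in 14 of the 37 (37.8%), against 23.7% of all tested genes. Its median deviation was -0.145 over the members and 0.0131 over all tested genes. M48 had the highest difference of the 4 mice in 28 of 37 members, against 30.7% of all tested genes, and the smallest fall in 16 of the 20 members that fell. A low adjacent value raises the difference, so these counts partly restate the low adjacent values of M48. Over all 4 mice, M48 included, the level of the members varied more in adjacent tissue (median SD 0.301) than in tumors (0.227). Of the 37, 31 had the smaller SD in tumors, against 51.5% of all tested genes. Without M48 the median SD of the adjacent samples was 0.172 for the members, and over all tested genes it went from 0.155 to 0.122. The tumor SD without M48 was not computed, so 0.172 cannot be set against the 0.227 of 4 tumors. The larger spread in adjacent tissue is therefore stated only with M48 included, and whether it holds without that mouse was not tested. In the fit without M48, 22 members fell and 6 rose.

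**Figure D4:**
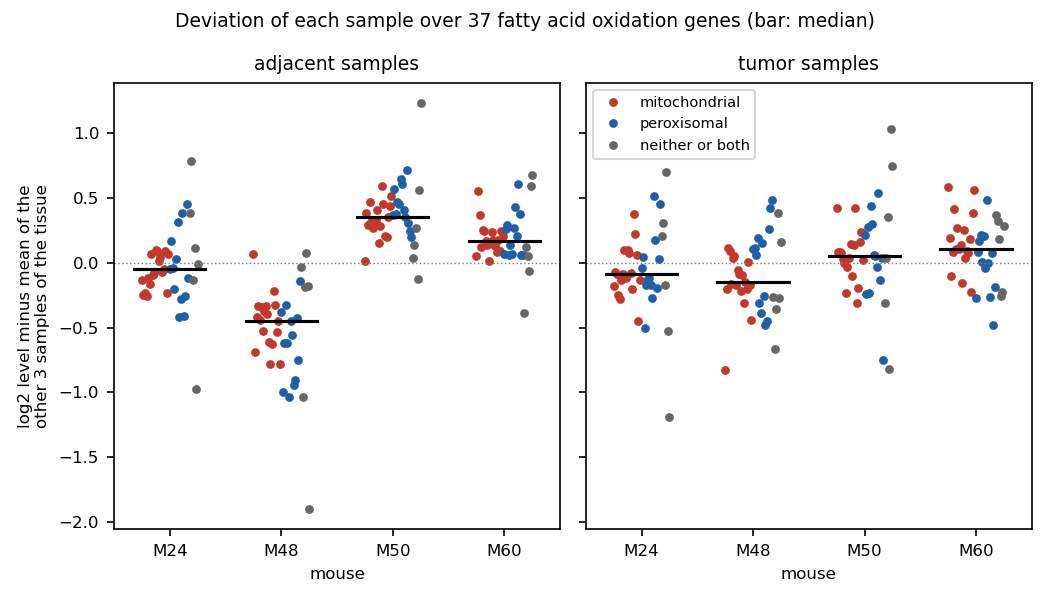
Each point is 1 of the 37 measured members, and its height is the log2 level in a sample minus the mean of the other 3 samples of that tissue (y axis, log2 units), for the adjacent samples on the left and the tumors on the right. Black bars are medians; the bar of the M48 adjacent sample lies at -0.448 and that of M50 at 0.352, whereas the bars of the tumors lie between -0.145 and 0.103.

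Several marker lists of other cells were highest in this adjacent sample. The mean level of 9 macrophage markers was 9.49 in the adjacent sample of M48 and 7.36 to 8.57 in the other adjacent samples, and it was 9.19 in the M48 tumor. For 8 lymphocyte markers the adjacent values were 4.98 in M48 and 4.38 to 4.69 elsewhere, and for 9 stellate and fibroblast markers 7.89 against 6.96 to 7.62. For 5 cholangiocyte markers they were 4.99 and 4.82 to 4.95. For 8 endothelial markers M48, at 7.25, lay within the range of the other adjacent samples, 7.11 to 7.41. Over 7 hepatocyte markers, M48 was at 12.92 and the other adjacent samples at 12.94 to 13.05. Their part in the low levels of M48 was not tested.

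Between the tissues, the 7 hepatocyte markers had a mean level of 12.92 to 13.05 in adjacent samples and 12.81 to 12.97 in tumors, and these ranges overlapped. Of these markers 1 rose (14.3%) and 2 fell (28.6%), against 16.3% and 15.7% of all tested genes. Hnf4a, a hepatocyte transcription factor, fell by 0.35. Of 9 stellate and fibroblast markers 5 rose, with a mean level of 6.96 to 7.89 in adjacent tissue and 8.15 to 8.61 in tumors, and the collagen gene Col3a1 rose by 1.94. Of 8 endothelial markers 4 rose, with mean levels of 7.11 to 7.41 and 7.70 to 8.13. Of 9 macrophage markers 1 rose and 3 fell, and 2 of 4 tested cholangiocyte markers rose, with mean levels of 4.82 to 4.99 and 5.07 to 6.08. Of 4 tested lymphocyte markers 0 rose by limma, with 3 higher at an unadjusted p under 0.05. The part of these markers in the differences of the members was not tested.

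Other genes of the same pathways were read for comparison, beside the 15.7% of all tested genes that fell and the 16.3% that rose. Of 27 tested further genes of mitochondrial oxidation and ketone metabolism 17 fell and 4 rose, and 11 fell without M24. The falls included the mitochondrial deacetylase Sirt3 (-1.26) and the carnitine importer Slc22a5 (-1.48), and Acot9, a mitochondrial thioesterase, rose by 1.18. Of 22 further peroxisomal genes 11 fell and 2 rose, with 6 falls and 1 rise without M24, M50 or M60, each left out in turn. Hacl1 of alpha-oxidation fell by 1.49, the bile acid conjugating enzyme Baat by 1.64 and the isomerase Ech1 by 0.66. Of 12 peroxins, the proteins that build the organelle, 4 fell (33.3%), among them Pex6 (-0.67), Pex13 (-0.72) and the import receptor Pex5 (-0.55). By limma 0 peroxins rose, and 0 were higher at an unadjusted p under 0.05. Of 19 general markers of mitochondrial content 4 fell (21.1%) and 1 rose (5.26%), with a median of -0.13. Without M50 or M60, 2 of them fell and 0 rose. The fusion proteins Mfn2 (-0.76) and Opa1 (-0.50) fell and the channel Vdac2 rose by 0.43.

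Ppara, the gene of the receptor itself, was at 9.79, 9.46, 9.73 and 10.07 in the adjacent samples of M24, M48, M50 and M60 and at 9.44, 9.14, 9.52 and 9.79 in the tumors, and fell by 0.29 (SE 0.0754, adjusted p = 0.0271), lower in 4 of 4 mice. Its partner Rxra fell by 0.73 (SE 0.0833, adjusted p = 0.00162). Of 15 tested genes of the receptor and its partners 5 fell (33.3%) and 2 rose (13.3%), against 15.7% and 16.3% of all tested genes. When any 1 mouse was left out 2 or 3 fell, and 0 rose without M24, M50 or M60. Of 21 tested PPAR-alpha targets outside oxidation 7 rose and 7 fell, from the fatty acid hydroxylase Cyp4a14 (-5.46) to lipoprotein lipase (Lpl, 2.66), with the hormone gene Fgf21 at 1.82.

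PPAR-alpha with its partner binds a direct repeat of a hexamer with a spacer of 1 base. The hexamer AGGTCA, any base and AGGTCA again (DR1) were searched on both strands in the RefSeq windows from 250 bases before to 50 after the start, of which 36 windows covered 31 members. An exact match was found in 0 of the 36 windows of the members and in 13 of all 32851 windows (0.0396%). With up to 2 mismatches there was a match in 4 windows of the members (11.1%) and in 3.86% of all windows. The 4 matches are given as the letters read along the motif, with capitals where they equal a fixed base of it (build GRCm38.p6). The spacer, where any base is allowed, is also in lower case and is not a mismatch. They lie in the windows of Etfa (chr9:55512194-55512493, minus strand), Acot4 (chr12:84038129-84038428, plus), Slc25a20 (chr9:108661886-108662185, plus) and Acox2 (chr14:8258790-8259089, minus).
Etfa: AGGgCAaAGGTaA
Acot4: cGGcCAaAGGTCA
Slc25a20: AGGTgAaAGGTCg
Acox2: AGGaCAgAGGTgA
Of these 4 genes 3 fell and Acox2 rose. A window without a match says only that these letters are not in it.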

How the data were processed

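RNA of 4 tumor and 4 adjacent liver samples was labelled from 0.2 ug of total RNA per sample, per the labels' protocols. The authors deposited 1 table of log2 values for 28874 probes with 0 missing values. The base of the log is not stated and was taken as 2 from the range of 1.918 to 14.49. The submitters' processing notes name MAS5, without version or role, and no source used here gives the background correction, summarization or detection calls. Since array medians lay at 4.888 to 5.006, no further scaling was applied. The number of arrays limits the precision.

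Gene names came from the platform's probe annotation (21789 probes with 1 symbol, 1621 with several, 5464 without an entry); all 37 measured members matched the GRCm38.p6 gene table by identifier. Genes with a mean below 4.597 were left out. limma 3.58.1 in R 4.3.3 was fitted with mouse as a block, since the design text takes both tissues from the same mice (eBayes with trend, two-sided, Benjamini-Hochberg over 11963 genes, 3 residual and 3.643 prior degrees of freedom). Deviations from the group means correlated at 0.313, 0.421, 0.0986 and 0.111 within M24, M48, M50 and M60, and at -0.378 to 0.189 between mice. The values of M50 and M60 lay within the range between mice, so the block rests on the design text and not on these correlations. In all, 1945 genes rose and 1874 fell (1246 and 1070 without M60; 1173 fell without M50). The fit was tested on simulated data with 200 changed genes and independent noise. That setting has fewer changed genes than were called here and no deviation shared across a sample, so it does not check the calls themselves. The members and lists were chosen with earlier results of these data known. All members were named, with up to 3 genes of each further pathway list and 2 of each marker list by smallest p; protein sequences were not used here. Alternatives were the filter, scaling, probe rule, block, trend, array weights and leaving out each mouse.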

Additional observations from a re-analysis of the deposited data

Results flagged for a closer look

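In each tissue, the highest and lowest of the 4 values of every measured member were compared with the nearest other value by Dixon's criterion (gap over range), which chance passes in about 1 in 20 groups. Of 74 groups 3 passed. The adjacent sample of M48 was low for Hadh, at 11.1 where the other mice had 11.47 to 11.52, and for Abcd3, at 10.4 against 11.26 to 11.40. The tumor of M24 was low for Acadm, at 11.1 against 11.34 to 11.36 in the other tumors.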

How the results depend on the processing

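Under the 12 alternatives to the fit, the members that fell numbered 15 to 22 and those that rose 4 to 6. With no replicate block 15 fell and 4 rose, and 6 of the 25 called members lost their call. Of 432 member results under an alternative, 402 stayed on their side of the threshold, 24 lost the call, 6 gained it, and 0 changed sign where either value was called. Of the members not called, Hadhb turned to -0.02 with each array centred on its median, to -0.05 without M48 and to -0.02 without M60, and Decr2 (-0.11) and Vnn1 (-0.24) turned without M48. Of the 25 called members 16 kept their call in every alternative. Leaving out each mouse, 15 to 22 members fell and 4 to 6 rose, and the medians ran from -0.43 to -0.26 for mitochondrial and from -0.88 to -0.58 for peroxisomal members, with a gap from -0.45 to -0.32. These medians and gaps are of the gene means over the mice, for which the gap in the main fit was -0.41. Counting Slc27a2 as peroxisomal, or leaving out Eci2, brought that gap to -0.32. For the other lists, leaving out each mouse gave 11 to 18 falls among mitochondrial genes, 6 to 14 falls and 1 to 2 rises among peroxisomal genes, 2 to 3 falls and 0 to 2 rises for PPAR-alpha and its partners, and 2 to 4 falls and 0 to 1 rises for mitochondrial content. For PPAR-alpha and its partners 3 fell with no filter and 1 rose with no replicate block, and for mitochondrial content 2 rose with 60% of genes left out or with no replicate block; the cause was not tested. Signal over background was not tested, since detection calls were not used here.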
